A study of Homo sapiens with 6 samples.

Results

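The unfolded protein response and the integrated stress response were followed in PC9 cells with and without knockdown of RBM10, through 45 genes of the 16306 in the deposited gene table. The genes were taken by symbol from a list of the known components of both responses and all 45 are in the table. They were chosen with earlier results of these data known. They form 5 groups by role: 16 chaperones and folding enzymes of the endoplasmic reticulum (ER), 7 genes of ER-associated degradation, 5 sensors and kinases together with XBP1, 8 regulators of the integrated stress response, and 9 targets of the transcription factor ATF4. The chaperone and degradation genes (23 in all) are described apart from the integrated stress response genes (17 in all).

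Proteins that are secreted or sit in membranes fold in the ER, where HSPA5 (BiP) and other chaperones hold unfinished chains and the ER-associated degradation machinery returns failed ones to the cytosol for the proteasome. When unfolded proteins accumulate, 3 sensors in the ER membrane respond: IRE1 (encoded by ERN1) cuts a short intron out of the XBP1 message so that the active factor is made, ATF6 is released as a transcription factor, and PERK (encoded by EIF2AK3) phosphorylates the translation initiation factor eIF2. Phosphorylated eIF2, which the amino acid sensor GCN2 (EIF2AK4) and other kinases also produce, lowers translation in general and raises that of ATF4, a step that transcript counts do not measure. ATF4 in turn drives genes of amino acid synthesis and uptake and of tRNA charging, as well as DDIT3 (CHOP), TRIB3 and PPP1R15A (GADD34), the last of which removes the phosphate from eIF2.

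The cells were PC9, a line from a human lung adenocarcinoma with a deletion in exon 19 of EGFR. RNA of 3 samples with a negative control shRNA (sh-NC) and 3 samples with an shRNA against the splicing regulator RBM10 (shRBM10) was sequenced, and all 6 samples are PC9 cells with no other treatment in the labels. The study describes 2 shRNAs against RBM10 and the labels do not say which of them the shRBM10 samples carry, so these libraries may not share an shRNA. The columns of sh-NC replicates 1 to 3 and of shRBM10 replicate 1 (library A here) match sample titles. The other shRBM10 columns match the group but no single sample, and are called libraries B and C. The labels number the samples as biosamples and do not say whether they are separate cultures. The p-values below set group differences against the variation between these samples, which may therefore be technical. The labels' extraction text names retinas as the source and lists 2 library kits, which goes against the PC9 label of the same samples.

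The libraries held between 16606390 and 18864243 counts. Values below are CPM (counts scaled to a common library size) after trimmed mean of M-values scaling, called normalized CPM, and folds are log2 fold changes of shRBM10 over sh-NC with their standard error (SE), unless stated. RBM10 itself had 77.9, 64.4 and 80.0 normalized CPM in the sh-NC libraries, in the order of their replicate numbers, against 29.2, 28 and 36.6 in libraries A, B and C of shRBM10, an order kept below. This was a log2 fold change of −1.24 (SE 0.23, edgeR adjusted p = 0.1, DESeq2 adjusted p = 0.00157). The keratins KRT7, KRT8, KRT18 and KRT19, EPCAM, CDH1 and EGFR were read in every library, whereas the lung lineage markers NKX2-1 and SFTPB had at most 3 counts in any library. In sh-NC replicate 2 EGFR was low (671, 141 and 717 normalized CPM in sh-NC against 811, 696 and 576 in shRBM10) and KRT8 was high (12116, 25875 and 12357 in sh-NC). Of 15 markers of immune, endothelial, fibroblast, glial and retinal cells, 11 were in the table, 6 of these had under 10 counts in every library, and the sum of the 11 per library, in CPM by total count alone, ranged from 128 to 140 for sh-NC and from 115 to 146 for shRBM10, most of it CD68.

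The sh-NC replicate 2 library stood apart from the other sh-NC libraries. Across genes its log2 levels correlated with those of replicates 1 and 3 at r = 0.945 and 0.947, against 0.996 between replicates 1 and 3, and its median gene had 264 counts against 409 to 453.5 in the other libraries. The libraries also differed in how the level of a gene moved with the GC content of its transcripts. For this, the log2 level was taken relative to each gene's mean over the 6 libraries. Per 10 percentage points of GC, this relative level changed by 0.137 to 0.351 in the sh-NC libraries (0.351 in replicate 2), by −0.478 and −0.308 in shRBM10 libraries A and B, and by 0.153 in library C. The fold changes were therefore also computed with each library's GC trend removed, and those values are given beside the results they move most. In bulk RNA, fewer expressing cells and less RNA per cell cannot be told apart.

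The substrate of IRE1 shows what the first branch of the response acts on, so it is given first. In exon 4 of XBP1 (chr22:28796127-28796152, minus strand, GRCh38, inside the coding sequence) IRE1 removes 26 bases, which shifts the reading frame and lengthens the protein. The bases in capitals are those removed, in a window at chr22:28796112-28796167, and the second line is the message without them.
XBP1, unspliced: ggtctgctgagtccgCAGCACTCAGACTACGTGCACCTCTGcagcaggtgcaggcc
XBP1, spliced: ggtctgctgagtccgcagcaggtgcaggcc

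The elements through which the factors act on their target genes were then read from the promoters. The ER stress response element, bound by ATF6 and XBP1 together with NF-Y, was searched as CCAAT and CCACG separated by 9 bases, on both strands, in the 250 bases before each start site (RefSeq, GRCh38.p14). It was found in 7 of the 40 genes that have a promoter in the table (17.5%) and in 22 of all 27305 promoters (0.0806%). By role, 6 of these 7 genes are chaperones or folding enzymes (of 15 with a promoter) and the other is XBP1 itself. The 8 sites are shown on the strand of the gene, with the fixed letters in capitals. Where the element lies on the other strand it reads as CGTGG and ATTGG.
HSPA5, chr9:125241386-125241414, minus strand: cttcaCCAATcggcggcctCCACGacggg
HSP90B1, chr12:103930211-103930239, plus strand: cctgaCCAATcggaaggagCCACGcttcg
HSP90B1, chr12:103930316-103930344, plus strand: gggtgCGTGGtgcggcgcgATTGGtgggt
CALR, chr19:12938379-12938407, plus strand: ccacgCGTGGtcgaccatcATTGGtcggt
CANX, chr5:179698773-179698801, plus strand: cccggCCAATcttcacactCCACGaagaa
CRELD2, chr22:49918549-49918577, plus strand: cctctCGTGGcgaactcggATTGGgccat
ERO1B, chr1:236282178-236282206, minus strand: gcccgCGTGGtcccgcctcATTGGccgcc
XBP1, chr22:28800598-28800626, minus strand: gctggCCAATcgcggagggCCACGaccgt

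The CEBP-ATF response element, through which ATF4 acts, was searched as TGATGNAA on both strands in the same windows. It was found in 4 of the 40 genes (10%) and in 870 of all promoters (3.19%). The 4 genes were HERPUD1, PPP1R15B, ASNS and CHAC1, of which the last 2 are ATF4 targets. Their sites are shown on the strand of the gene, and the element of CHAC1 lies on the other strand. A match is a run of letters and not evidence of binding.
ASNS, chr7:97872464-97872481, minus strand: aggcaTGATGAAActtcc
CHAC1, chr15:40953257-40953274, plus strand: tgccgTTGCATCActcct

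Of the 45 genes, 44 had enough counts to be tested. DERL3, a degradation channel component of secretory cells, had 4 to 11 counts in a library and was not tested. The 2 responses lay on opposite sides of no change. The integrated stress response genes were lower after knockdown for 15 of 17 (median log2 fold change −0.47, or −0.28 with the GC trend of each library removed) and the chaperone and degradation genes were higher for 13 of the 22 tested (median 0.19, or 0.01 with the GC trend of each library removed), while the median over all 12620 genes tested was 0.03. At an adjusted p under 0.05 and a fold over 2 in edgeR, 0 of the 44 genes were called, where 2 of all genes tested (0.0158%) were. The count was then taken without adjustment of p. At an unadjusted p under 0.05 and the same fold, 4 genes were higher (EIF2AK3, SEL1L, DNAJC3 and HSP90B1) against 10.1% of all genes, and 0 were lower against 1.53%. At these limits 0 were higher and 1 was lower (ASNS) with the GC trend of each library removed. Of all 12620 genes tested 322 were then higher and 278 lower. With DESeq2 and both limits, EIF2AK3 was called among the higher genes (background 3.64%) and 0 among the lower (background 1.00%). With no limit on the fold, DESeq2 called EIF2AK3 and TRIB3, where it called 5.23% of all genes.

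**Figure D1:**
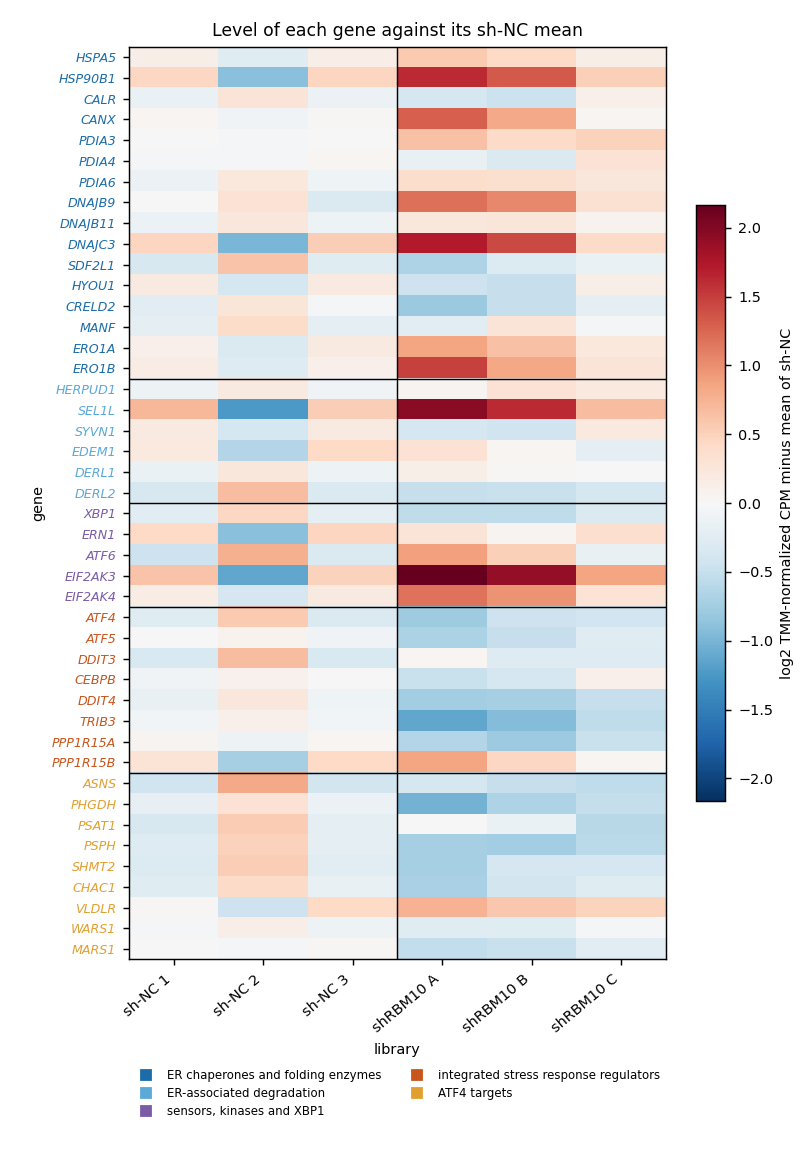
Level of the 44 tested genes (rows, coloured by role) in the 6 libraries (columns) as log2 normalized CPM minus the mean of the 3 sh-NC libraries. Red is above and blue below that mean. The upper rows turn red mostly in shRBM10 libraries A and B, the lower rows (integrated stress response) are blue in all 3 shRBM10 libraries for most genes, and sh-NC replicate 2 differs in colour from the other sh-NC libraries.

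The levels of the groups did not overlap in 9 genes that were higher in shRBM10 (20.5% of those tested, against 13.8% of all genes) and in 12 that were lower (27.3%, against 16.2%). Of the 12 lower genes 10 belong to the integrated stress response, which is 58.8% of its 17 genes, and 1 is a chaperone or degradation gene (4.55% of 22). Of the 9 higher genes 6 are chaperones or folding enzymes and 1, VLDLR, belongs to the integrated stress response. At an unadjusted p under 0.05 with no limit on the fold, 10 genes were higher (background 15.7%) and 5 were lower (background 8.60%), and the 5 lower ones, 29.4% of the integrated stress response genes, were DDIT4, TRIB3, PPP1R15A, PHGDH and PSPH. With the GC trend of each library removed, 4 genes did not overlap upward (HSP90B1, EIF2AK3, EIF2AK4 and CEBPB, background 14.1%) and 11 did so downward (background 16.0%). Of those 11, 9 were integrated stress response genes (52.9%). On the same scale 1 gene was higher at an unadjusted p under 0.05 (background 8.52%) and 8 were lower (background 9.78%).

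Among the sensors, kinases and XBP1, the eIF2 kinase genes EIF2AK3 and EIF2AK4 had the largest log2 fold changes. With the GC trend removed EIF2AK3 stayed largest, but the value of EIF2AK4 was smaller in size than those of XBP1 and ATF6. EIF2AK3 (chr2:88556741-88628145, minus strand, GRCh38), which encodes PERK, had 5.43, 1.64 and 5.06 normalized CPM with sh-NC against 16, 13.2 and 6.43 with shRBM10. Every shRBM10 library lay above every sh-NC library, with library C close to sh-NC replicates 1 and 3. This gave a log2 fold change of 1.54 (SE 0.48, 2.91-fold, edgeR adjusted p = 0.156, DESeq2 adjusted p = 0.0358). It was 0.90 with the GC trend removed and 1.09 without sh-NC replicate 2. EIF2AK4, which encodes the amino acid sensor GCN2, had 14.9, 10.3 and 15.2 normalized CPM in sh-NC against 29.8, 26.1 and 16.2 in shRBM10, again with library C nearest to sh-NC (log2 fold change 0.84, SE 0.31, edgeR adjusted p = 0.173, and 0.31 with the GC trend removed).

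The differences in the other sensors were within the spread between libraries. ERN1, which encodes IRE1, had 27.2, 10.7 and 27.6 normalized CPM in sh-NC against 24.5, 20.8 and 25.7 in shRBM10, so that only sh-NC replicate 2 lay apart, and its log2 fold change of 0.11 (SE 0.36) was −0.30 without that library and 0.15 with the GC trend removed. ATF6 had 30.8, 72.2 and 33.8 normalized CPM in sh-NC against 78.5, 60.7 and 37.8 in shRBM10 (log2 fold change 0.37, SE 0.38), and here sh-NC replicate 2 was high. The direction of ATF6 turned with the GC trend removed (−0.42) and its value was 0.78 without sh-NC replicate 2.

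XBP1, the factor that IRE1 activates and that itself carries an ER stress response element, had 403, 644 and 405 normalized CPM in sh-NC against 323, 322 and 380 in shRBM10. All 3 shRBM10 libraries lay below the sh-NC libraries, and the distance to sh-NC replicates 1 and 3 was smaller than that to replicate 2. Its log2 fold change was −0.50 (SE 0.27, edgeR adjusted p = 0.258), −0.56 with the GC trend removed and −0.32 without sh-NC replicate 2.

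**Figure D2:**
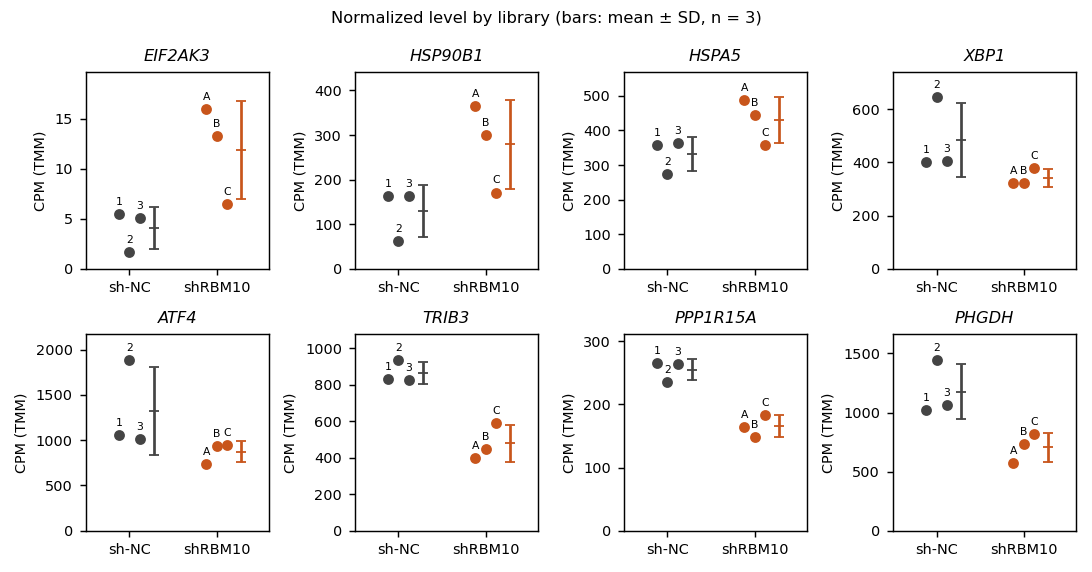
Normalized CPM (vertical axes, from 0) of 8 genes in each library, with the replicate number (sh-NC) or library letter (shRBM10) beside each point and the mean ± SD of each group (n = 3). EIF2AK3 and HSP90B1 are high in shRBM10 libraries A and B and near sh-NC replicates 1 and 3 in library C, whereas TRIB3, PPP1R15A and PHGDH lie below all sh-NC libraries in all 3 shRBM10 libraries.

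The share of the XBP1 message that had lost the 26 bases was taken from the transcript table, as the estimated count of the spliced transcript (NM_001079539) over that of both transcripts (with NM_005080, the unspliced one). In sh-NC replicate 1 the spliced share was 8.53% (exact 95% binomial interval 7.94 to 9.17). It was 6.63% (6.11 to 7.18) in replicate 2 and 5.91% (5.41 to 6.44) in replicate 3. In shRBM10 it was 5.58% (5.00 to 6.21) in library A, 7.83% (7.18 to 8.54) in library B and 4.12% (3.67 to 4.61) in library C. These intervals take the estimated counts as reads assigned with certainty. Reads that do not reach the 26 bases are divided between the 2 transcripts by estimate, so the intervals are too narrow. Within each group they do not all overlap, but this does not show that the libraries differ beyond counting error. The means were 7.02% ± 1.36 in sh-NC and 5.84% ± 1.87 in shRBM10 (SD, n = 3), a difference of −1.18 percentage points that was within the spread between libraries (exact permutation test, two-sided, p = 0.4, where 3 against 3 cannot go below 0.1).

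**Figure D3:**
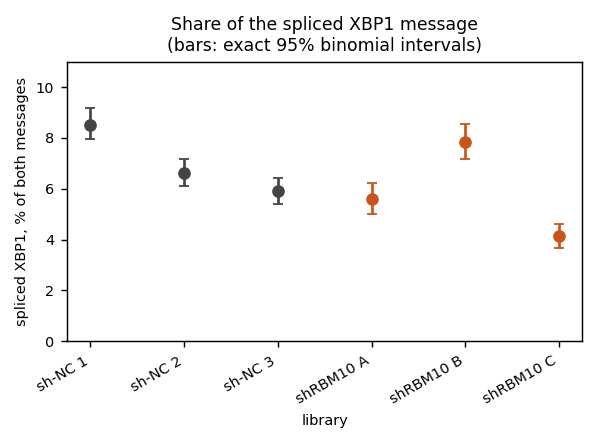
Spliced XBP1 as a percentage of the spliced and unspliced messages (vertical axis, from 0) in each library. The exact 95% binomial intervals use the estimated counts, leave out the error of dividing reads between transcripts and are too narrow. The 3 sh-NC libraries lie between 5.91% and 8.53% and the 3 shRBM10 libraries between 4.12% and 7.83%, so that the groups overlap.

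Among the 16 chaperones and folding enzymes 10 were higher after knockdown and 6 lower (median log2 fold change 0.35), and at an unadjusted p under 0.05 with no limit on the fold 7 were higher (background 15.7%) and 0 lower. The median was 4.05e-05 with the GC trend removed, and 0 of the 16 were then higher at that p (background 8.52%). HSP90B1 (chr12:103930410-103947926, plus strand, GRCh38) encodes GRP94, the HSP90 protein of the ER, and had 163, 63.2 and 164 normalized CPM in sh-NC against 366, 300 and 171 in shRBM10. Libraries A and B were well above sh-NC replicates 1 and 3, and library C only just. Its log2 fold change was 1.10 (SE 0.40, edgeR adjusted p = 0.170), 0.47 with the GC trend removed and 0.69 without sh-NC replicate 2. HSPA5, which encodes BiP and is the usual readout of ER stress, had 358, 275 and 363 normalized CPM in sh-NC against 489, 444 and 358 in shRBM10. The groups overlapped, and the log2 fold change of 0.38 (SE 0.24, edgeR adjusted p = 0.334) was 0.02 with the GC trend removed and 0.17 without sh-NC replicate 2.

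The lectin chaperones that bind sugar-tagged proteins lay on opposite sides of no change. CANX (calnexin) had 423, 387 and 416 normalized CPM in sh-NC against 1000, 724 and 422 in shRBM10 (log2 fold change 0.81, SE 0.32, edgeR adjusted p = 0.181, and 0.45 with the GC trend removed). Library C was at the level of sh-NC. CALR (calreticulin) had 602, 801 and 604 in sh-NC against 508, 478 and 717 in shRBM10 (log2 fold change −0.24, SE 0.27, and −0.06 with the GC trend removed). The groups of CALR overlapped through library C. PDIA3, the disulfide isomerase that works with both, had 198, 193 and 196 normalized CPM in sh-NC against 303, 260 and 277 in shRBM10. Its libraries lay close together within each group (SD 2.34 in sh-NC and 21.5 in shRBM10) and its groups did not overlap (log2 fold change 0.52, SE 0.21, edgeR adjusted p = 0.185, and 0.13 with the GC trend removed).

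The J-domain partners of HSPA5 and the oxidases that supply disulfide bonds had log2 fold changes above 0 on this scale, none of them called, and DNAJB11 and ERO1A turned below 0 with the GC trend removed. DNAJC3, which also inhibits eIF2 kinases, had 11.6, 4.25 and 12.2 normalized CPM in sh-NC against 28, 22.8 and 11.2 in shRBM10 (log2 fold change 1.14, SE 0.46, edgeR adjusted p = 0.183, 0.42 with the GC trend removed and 0.71 without sh-NC replicate 2), so that its groups overlapped through library C. DNAJB9 had 7.65, 9.61 and 6.24 in sh-NC against 17.5, 15.9 and 9.67 in shRBM10 (log2 fold change 0.88, SE 0.33, edgeR adjusted p = 0.172, and 0.11 with the GC trend removed). Its library C exceeded sh-NC replicate 2 by a margin smaller than the spread of the sh-NC libraries. DNAJB11 had a log2 fold change of 0.19 (SE 0.22), or −0.37 with the GC trend removed. The oxidases ERO1A and ERO1B did not overlap between groups: ERO1A had 56.4, 42.3 and 59.9 normalized CPM against 94.9, 81.0 and 61.1 (log2 fold change 0.58, SE 0.25). ERO1B had only 19 to 86 counts in a library (log2 fold change 0.92, SE 0.37). ERO1A and ERO1B came to −0.13 and 0.17 with the GC trend removed, and ERO1A was 0.36 without sh-NC replicate 2.

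The remaining folding enzymes lay near or below no change. PDIA6 did not overlap between groups (245, 313 and 249 normalized CPM in sh-NC against 350, 342 and 319 in shRBM10, log2 fold change 0.32, SE 0.22), and its value was −0.02 with the GC trend removed. PDIA4 and MANF had log2 fold changes of −0.03 (SE 0.25) and −0.01 (SE 0.28), or 0.09 and −0.02 with the GC trend removed. HYOU1, the exchange factor for HSPA5, SDF2L1 and CRELD2 had −0.27 (SE 0.27), −0.42 (SE 0.32) and −0.49 (SE 0.25), with groups that overlapped in each case. These came to −0.09, −0.06 and −0.22 with the GC trend removed, and without sh-NC replicate 2 HYOU1 was −0.51 and SDF2L1 was −0.12. Of the 7 genes that carry the ER stress response element 4 were higher and 3 lower, with log2 fold changes from −0.50 (XBP1) to 1.10 (HSP90B1).

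The 6 tested genes of ER-associated degradation were divided evenly (3 higher, 3 lower, median log2 fold change 0.02). SEL1L, the adaptor of the HRD1 ubiquitin ligase, had 21.0, 5.37 and 18.5 normalized CPM in sh-NC against 49.8, 39.3 and 20.3 in shRBM10. Libraries A and B were above all sh-NC libraries and library C lay among them. SEL1L had a log2 fold change of 1.28 (SE 0.49, edgeR adjusted p = 0.176), 0.64 with the GC trend removed and 0.80 without sh-NC replicate 2. SYVN1, which encodes HRD1 itself, had 55.8, 37.4 and 55.5 in sh-NC against 37.4, 36.1 and 56.8 in shRBM10 (log2 fold change −0.19, SE 0.27, −0.01 with the GC trend removed and −0.44 without sh-NC replicate 2), with groups that overlapped.

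DERL2, a channel component, had 46.8, 94.6 and 47.7 normalized CPM in sh-NC against 42.1, 42.7 and 46.5 in shRBM10. The groups did not overlap, but library C was almost level with sh-NC replicate 1 and the log2 fold change of −0.53 (SE 0.30, edgeR adjusted p = 0.285) was −0.19 without sh-NC replicate 2. It was −0.96 with the GC trend removed (unadjusted p = 0.0380 in that edgeR fit), and the groups again did not overlap. HERPUD1, which organises the ligase complex, EDEM1, which trims mannose from failed glycoproteins, and DERL1 had log2 fold changes of 0.19 (SE 0.21), −0.003 (SE 0.30) and 0.05 (SE 0.22). They were 0.06, 0.08 and −0.31 with the GC trend removed, and EDEM1 was −0.34 without sh-NC replicate 2.

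Of the 8 regulators of the integrated stress response 7 were lower after knockdown (median log2 fold change −0.53, or −0.27 with the GC trend removed). ATF4 (chr22:39520559-39522686, plus strand, GRCh38) had 1062, 1884 and 1016 normalized CPM in sh-NC against 739, 933 and 952 in shRBM10. All shRBM10 libraries were below all sh-NC libraries, and sh-NC replicate 2 was far above the rest. For ATF4 the log2 fold change was −0.59 (SE 0.32, edgeR adjusted p = 0.261), −0.39 with the GC trend removed and −0.33 without sh-NC replicate 2. With the GC trend removed the groups of ATF4 overlapped. ATF5, a related factor under the same translational control, had 59.1, 62.0 and 55.5 in sh-NC against 36.5, 41.7 and 49.0 in shRBM10 (log2 fold change −0.47, SE 0.22, edgeR adjusted p = 0.215, and −0.16 with the GC trend removed).

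TRIB3 (chr20:380760-397559, plus strand, GRCh38), a pseudokinase that ATF4 and CHOP induce and that restrains ATF4 in return, had the smallest p of the 44 genes in edgeR (in DESeq2 that of EIF2AK3 was smaller). It had 831, 935 and 827 normalized CPM in sh-NC against 397, 448 and 588 in shRBM10. The sh-NC libraries, replicate 2 included, lay close together and above each shRBM10 library. The log2 fold change was −0.86 (SE 0.26, 1.81-fold lower, edgeR adjusted p = 0.153, DESeq2 adjusted p = 0.0417), −0.56 with the GC trend removed (unadjusted p = 0.00905 in that edgeR fit) and −0.87 without sh-NC replicate 2.

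PPP1R15A (chr19:48872421-48876058, plus strand, GRCh38), which encodes GADD34, had 266, 236 and 264 normalized CPM in sh-NC against 165, 148 and 183 in shRBM10. Here too every shRBM10 library was below every sh-NC library, and sh-NC replicate 2 was the lowest of the controls. The log2 fold change was −0.63 (SE 0.21, edgeR adjusted p = 0.165), −0.38 with the GC trend removed and −0.76 without sh-NC replicate 2. DDIT4, which encodes the mTORC1 inhibitor REDD1, had 292, 386 and 305 in sh-NC against 192, 198 and 230 in shRBM10 (log2 fold change −0.67, SE 0.23, edgeR adjusted p = 0.165). Its value was −0.31 with the GC trend removed and −0.61 without sh-NC replicate 2.

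The differences in the remaining regulators were within the spread between libraries. DDIT3, which encodes the death-promoting factor CHOP, had 44.7, 89.4 and 44.6 normalized CPM in sh-NC against 58.0, 46.5 and 46.3 in shRBM10, and its log2 fold change of −0.24 (SE 0.31) was 0.08 without sh-NC replicate 2, so that its direction rested on that library. Exons of DDIT3 overlap those of MARS1 on the opposite strand, and whether the counts used strand is not given in the sources used here. CEBPB had −0.22 (SE 0.24), and with the GC trend removed it turned to 0.11 with groups that did not overlap. PPP1R15B, which encodes the constant eIF2 phosphatase subunit, was the only regulator above no change on this scale, with 64.6, 31.9 and 71.6 normalized CPM in sh-NC against 95.3, 72.2 and 54.5 in shRBM10 (log2 fold change 0.40, SE 0.33), and it came to −0.16 with the GC trend removed and 0.03 without sh-NC replicate 2.

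The ATF4 targets were lower in 8 of 9 (median log2 fold change −0.47, or −0.28 with the GC trend removed). The serine synthesis enzymes act in the order PHGDH, PSAT1, PSPH. PHGDH (chr1:119711934-119744215, plus strand, GRCh38), the entry enzyme, had 1024, 1443 and 1065 normalized CPM in sh-NC against 572, 731 and 817 in shRBM10 (log2 fold change −0.74, SE 0.28, 1.67-fold lower, edgeR adjusted p = 0.175). PSPH, the last enzyme, had 265, 459 and 277 in sh-NC against 195, 192 and 214 in shRBM10 (log2 fold change −0.73, SE 0.27, edgeR adjusted p = 0.171). In both genes all shRBM10 libraries lay below all sh-NC libraries, and the log2 fold changes without sh-NC replicate 2 were −0.64 and −0.52. With the GC trend removed they were −0.52 and −0.58.

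PSAT1, the enzyme between them, had 374, 694 and 409 normalized CPM in sh-NC against 475, 430 and 312 in shRBM10, and its groups overlapped (log2 fold change −0.28, SE 0.31, and −0.03 without sh-NC replicate 2). ASNS, the asparagine synthetase that carries the CEBP-ATF response element shown above, had 482, 1148 and 488 in sh-NC against 499, 460 and 442 in shRBM10. It was high in sh-NC replicate 2 alone, and the log2 fold change of −0.60 (SE 0.36) was −0.14 without it. These are the targets of lowest GC content (44.1% and 43.9%), and with the GC trend removed their log2 fold changes were larger, −0.83 and −1.13. On that scale the groups of both genes did not overlap (edgeR adjusted p = 0.238 and 0.25 in that fit).

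SHMT2, which passes the carbon of serine to mitochondrial folate, had 545, 962 and 566 normalized CPM in sh-NC against 405, 520 and 519 in shRBM10 (log2 fold change −0.52, SE 0.29, −0.24 with the GC trend removed and −0.29 without sh-NC replicate 2). CHAC1, a glutathione-degrading enzyme, had 37.5, 59.7 and 40.3 in sh-NC against 27.7, 33.9 and 37.2 in shRBM10 (log2 fold change −0.48, SE 0.26, and −0.16 with the GC trend removed), with library C almost level with sh-NC replicate 1. The tRNA synthetase genes MARS1 and WARS1 had log2 fold changes of −0.41 (SE 0.23, groups not overlapping) and −0.19 (SE 0.22, groups overlapping), or −0.28 and −0.26 with the GC trend removed. VLDLR, a lipoprotein receptor, was the exception, with 4.34, 3.13 and 5.80 normalized CPM in sh-NC against 7.26, 6.41 and 5.96 in shRBM10 (log2 fold change 0.56, SE 0.31, 0.13 with the GC trend removed and 0.28 without sh-NC replicate 2).

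**Figure D4:**
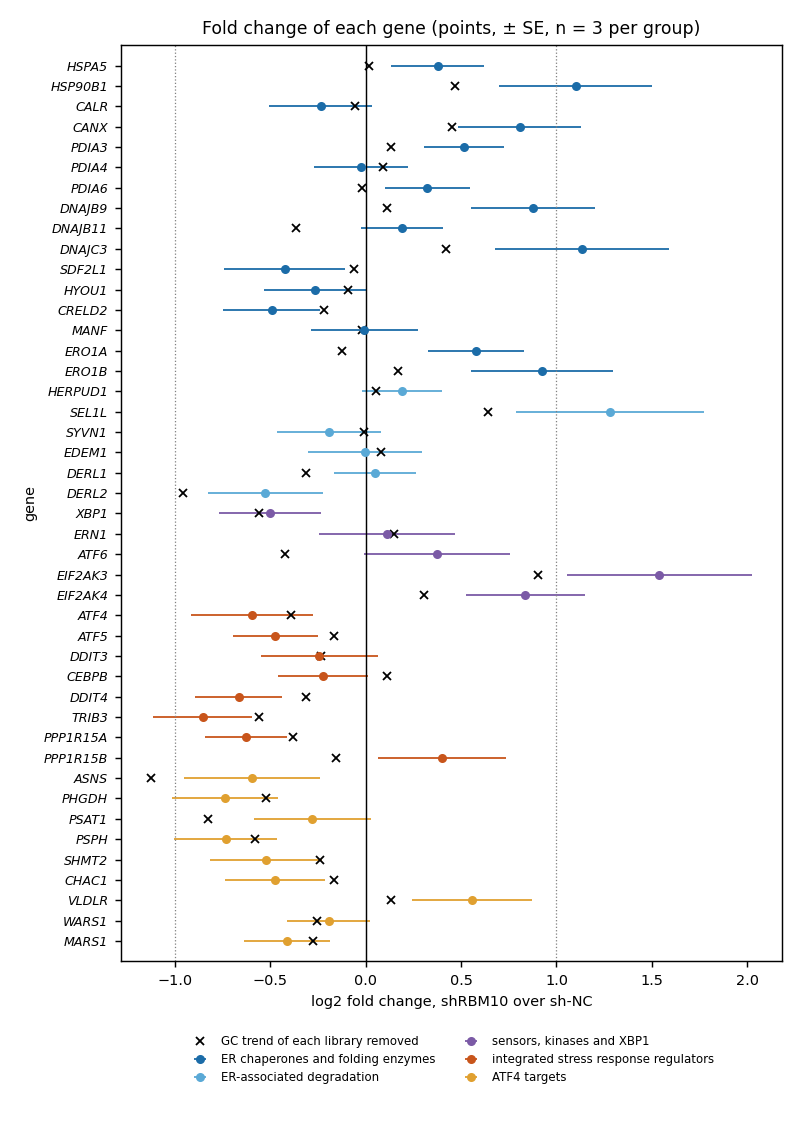
Log2 fold change of shRBM10 over sh-NC for the 44 tested genes (points coloured by role, bars ± SE, n = 3 per group) and the same with each library's GC trend removed (crosses). The dotted lines mark a log2 fold change of 1 in each direction. The chaperones mostly lie right of 0 and their crosses close to 0, while most integrated stress response genes lie left of 0 as points and as crosses.

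The level of each response was summarised in a library as the median, over its genes, of the log2 level minus the sh-NC mean. For the integrated stress response it came to −0.16, 0.25 and −0.11 for sh-NC against −0.63, −0.44 and −0.36 for shRBM10. All shRBM10 libraries were below all sh-NC libraries, and so they were with the GC trend removed (−0.12, 0.17 and −0.10 against −0.28, −0.28 and −0.34). For the chaperone and degradation genes it came to 0.00132, −0.03 and 0.02 for sh-NC against 0.28, 0.29 and 0.17 for shRBM10. Once the GC trend was removed it was −0.04, 0.04 and −0.02 against −0.06, −0.04 and 0.12, so that these groups overlapped.

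The groups of genes differ in base composition: the median GC content of the transcripts was 46.0% for the chaperone and degradation genes, 55.4% for the integrated stress response genes and 50.3% for all genes. With the GC trend removed, the median log2 fold change of the chaperone and degradation genes went from 0.19 to 0.01, and that of the integrated stress response genes went from −0.47 to −0.28, where the median of all genes was −0.02. Libraries A and B, whose levels relative to the mean of all libraries dropped with GC content, were also those in which the chaperones were highest.

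Other genes of the same pathways were taken from lists that do not contain the 45 genes. These lists too were chosen with earlier results of these data known, so their counts are not independent support. Of 69 other ER genes tested (translocation, glycan trimming, disulfide formation, degradation and transport out of the ER), 31 were higher and 38 lower, with a median log2 fold change of −0.04. At an unadjusted p under 0.05 and a fold over 2, 8 of them were higher (background 10.1%) and 0 lower (background 1.53%). With the GC trend removed 0 were higher and 0 lower, where 322 and 278 of all 12620 genes tested were. The 5 of smallest p were ERLEC1 (1.19), SEC24D (1.14), SEC62 (1.20), DNAJC10 (1.30) and UBXN4 (1.45), in log2 fold change. Those 5 values were 0.58, 0.61, 0.45, 0.56 and 0.76 with the GC trend removed. The glycan-binding degradation factor ERLEC1 had 20.2, 13.6 and 18.3 normalized CPM in sh-NC against 46.3, 45.1 and 28.1 in shRBM10 (edgeR adjusted p = 0.137, DESeq2 adjusted p = 0.0158). SEC24D, a cargo adaptor of the vesicles that leave the ER, had 11.2, 8.72 and 14.1 in sh-NC against 26.0, 27.2 and 21.7 in shRBM10 (edgeR adjusted p = 0.140, DESeq2 adjusted p = 0.0170).

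Of 50 other ATF4 targets and integrated stress response genes tested, 19 were higher and 31 lower, with a median log2 fold change of −0.37 (−0.35 with the GC trend removed). The groups did not overlap in 23 that were lower (46.0%, background 16.2%) and 3 that were higher (6%, background 13.8%), and with the GC trend removed 22 were lower without overlap (44.0%, background 16.0%). At an unadjusted p under 0.05 with no limit on the fold, 17 were lower (34.0%, background 8.60%) and 7 higher (background 15.7%). The amino acid transporter SLC1A4 was the single gene lower by more than 2-fold at that p (background 1.53%). It had 58.5, 47.6 and 58.1 normalized CPM in sh-NC against 22.0, 20.2 and 32.4 in shRBM10 (log2 fold change −1.14, SE 0.26, edgeR adjusted p = 0.130, DESeq2 adjusted p = 0.0126, and −1.01 with the GC trend removed). SLC7A5 and SLC3A2, which encode the light and the heavy chain of an amino acid transporter and were singled out after their values were seen, had log2 fold changes of −0.97 (SE 0.28) and −0.91 (SE 0.27), or −0.71 and −0.74 with the GC trend removed, with all shRBM10 libraries below all sh-NC libraries.

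On the same list 7 genes were higher by more than 2-fold at an unadjusted p under 0.05 (background 10.1%). With the GC trend removed 1 was, where 322 of all 12620 genes tested were. The 5 of smallest p were KLHL24 (1.69), NARS1 (1.31), TARS1 (1.31), XPOT (1.37) and LARS1 (1.44), in log2 fold change, and with the GC trend removed these were 1.44, 0.77, 0.74, 0.61 and 0.72. NARS1, TARS1 and LARS1 are tRNA synthetases and XPOT exports tRNA from the nucleus. TARS1 had 146, 87.9 and 135 normalized CPM in sh-NC against 445, 343 and 126 in shRBM10, and in NARS1, TARS1, XPOT and LARS1 library C lay within the range of sh-NC while libraries A and B lay above it. KLHL24 had 6.61, 3.06 and 6.43 in sh-NC against 27.0, 16.8 and 8.57 in shRBM10 (edgeR adjusted p = 0.152, DESeq2 adjusted p = 0.0132).

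Because RBM10 regulates splicing, the use of transcripts within each gene was tested for the 30 genes with at least 2 transcripts in the fit. At an adjusted Simes p under 0.05, 0 of 30 were called, where 3.50% of 8348 genes were, and 1 of 30 had an unadjusted Simes p under 0.05, where 5.06% of all genes did. That gene was SHMT2, whose Simes p, adjusted over all 8348 genes in edgeR's diffSpliceDGE, was 0.457. The transcript of smallest p was XM_011538677, which took 5.52%, 4.43% and 4.69% of the SHMT2 counts in sh-NC against 2.29%, 1.46% and 2.79% in shRBM10, shares that did not overlap. ATF4 was read almost wholly from NM_182810 (98.0% to 99.0% in every library), and DDIT3 mostly from NM_004083 (75.3% to 80.7% in sh-NC against 69.3% to 76.5% in shRBM10, overlapping).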

How the data were processed

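RNA of 3 sh-NC and 3 shRBM10 samples of PC9 was sequenced by BGI-Tech. The authors deposited estimated counts per gene and per RefSeq transcript (87.5% and 41.1% whole numbers). Per the labels the build is hg38. The aligner and the counting tool are not given in the sources used here. Not used were 18 columns of other per-library measures and 8 columns of group means in each table.

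Estimated counts were rounded, filtered with filterByExpr, TMM-normalized and tested with edgeR 4.0.16 (quasi-likelihood, two-sided, limma 3.58.1, R 4.3.3) over all 12620 genes with Benjamini-Hochberg adjustment. A call needed an adjusted p under 0.05 with a log2 fold change beyond 1 in either direction. The SE is the size of the log2 fold change divided by the square root of F. Transcript usage was tested with diffSpliceDGE (Simes p). Alternatives were DESeq2 1.42.0, other normalizations and filters, GC and length trends removed by lowess (GC content for 99.6% of genes) and leaving out each library. The edgeR gene test with TMM and the transcript usage test were also run on simulated data, and the alternatives were not. Gene coordinates are from RefSeq (GRCh38.p14). Exons, strands and the position of the XBP1 intron are from the GENCODE annotation of GRCh38.

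The 45 genes and both lists of other pathway genes were chosen with earlier results of these data known, so their p-values are not independent support. Named genes are all 45 genes, RBM10 and, of each other list, up to 5 in each direction by smallest p among those past that fold limit at an unadjusted p under 0.05. For transcript usage they are called genes, XBP1, ATF4 and DDIT3, and SHMT2 was added after its value was seen. Exons of 22 of the 45 genes overlap those of another gene, so counts of these are uncertain where strand was not used.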

Additional observations from a re-analysis of the deposited data

How the results depend on the processing

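No paired analysis was possible because the shRBM10 columns carry a replicate number in library A only. Of the 44 genes, 29 kept their direction under every alternative that was run and 15 did not. The number of the 45 genes called was 0 in edgeR, 4 with an unadjusted p, 1 with DESeq2 and 2 with DESeq2 without a fold limit (added after seeing the data), and over all genes these counts were 2, 1465, 574 and 647. All genes called were 0 with library size only, 31 with no filter, 1 with the GC trend removed, 6 with GC and length trends removed, and 0 to 23 when 1 library was left out (23 without sh-NC replicate 2). The log2 fold change of RBM10 was −1.26 with DESeq2 (adjusted p = 0.00157) and −1.42 without sh-NC replicate 2 (edgeR adjusted p = 0.0487), both past the threshold, and −1.43 to −1.17 when any 1 library was left out. EIF2AK3 passed it with DESeq2 at 1.51. Leaving out 1 library changed the number of the 44 genes past an unadjusted p and the fold limit from 4 higher to 1 (without sh-NC replicate 2, library A or library B) or to 7 with 1 lower (without library C). Over all genes tested, those higher were then 616 of 12795 without sh-NC replicate 2, 424 of 12716 without library A and 863 of 12761 without library B. Without library C they were 1722 of 12743, with 421 lower. The median of the chaperone and degradation genes was 0.34 with library size only, which moves the median of all genes to 0.16, 0.00613 with the GC trend removed and 0.0532 with GC and length trends removed. The median of the integrated stress response genes was −0.61 to −0.32 when 1 library was left out, −0.32 without sh-NC replicate 2. That of the other ATF4 targets was −0.21 with library size only, and that of the other ER genes was −0.22 (without library C) to 0.0437 (without sh-NC replicate 2) when 1 library was left out. The genes higher without overlap numbered 4 with the GC trend removed (background 14.1%) and 3 with GC and length trends removed. When 1 library was left out they numbered 9 to 14, and those lower without overlap numbered 12 to 20 (14 and 20 without library C). With 1 library fewer, groups overlap less easily. The share of all genes was not taken for those fits or with GC and length trends removed, so these counts have no background to be read against. Without sh-NC replicate 1, sh-NC replicate 3 or library C, 1 gene was called for transcript usage each time (WARS1, SEL1L and SHMT2). Over all genes 354 of 8804, 357 of 8786 and 469 of 8823 were called in those fits. Directions turned as follows. With library size only PDIA4 came to 0.0906, MANF to 0.16 and EDEM1 to 0.0602, and with at least 10 counts in every library MANF came to 0.0174 and EDEM1 to 0.0173. With the GC trend removed PDIA4 came to 0.0915, PDIA6 to −0.021, DNAJB11 to −0.37, ERO1A to −0.13, EDEM1 to 0.0777, DERL1 to −0.31, ATF6 to −0.42, CEBPB to 0.11 and PPP1R15B to −0.16. With GC and length trends removed HSPA5 came to −0.15, CALR to 0.00647, PDIA4 to 0.0874, PDIA6 to −0.0754, DNAJB11 to −0.39, MANF to 0.0773, ERO1A to −0.0662, SYVN1 to 0.0291, EDEM1 to 0.13, DERL1 to −0.26, ATF6 to −0.80, CEBPB to 0.0919 and PPP1R15B to −0.32. With 1 library left out the range was −0.34 to 0.21 for EDEM1, −0.0269 to 0.10 for DERL1, −0.15 to 0.14 for MANF, −0.30 to 0.31 for ERN1, −0.42 to 0.0849 for DDIT3 and −0.29 to 0.10 for PDIA4. Beyond what each alternative's own construction shows, the cause of these differences was not tested.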
